A study of Bos taurus with 42 samples.

Results

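Ion channel and neurotransmitter receptor genes were followed across the cerebrum, liver, and muscle of bovine fetuses on day 50 of gestation. The members were the rows of the deposited count table whose symbol in the study's supplementary tables begins with the family names of potassium (*KCN*), sodium (*SCN*), calcium (*CACN*), or pacemaker (*HCN*) channels, or of glutamate (*GRIA*, *GRIK*, *GRIN*, *GRM*), GABA-A (*GABR*), or acetylcholine (*CHRN*) receptors, with 2 genes of these families left out by the rule. This gave 55 of 22664 genes, out of 5131 that had a symbol in those tables. A gene has a symbol there because the study listed it, and those lists were made on these same libraries: 48 of the 55 were listed as differentially co-expressed between diets, 10 as tissue specific, and 6 as differentially expressed. The set is therefore not a census of the families, and its tissue and diet patterns are not independent of how it was chosen.

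The fetuses came from 14 Angus-cross heifers bred to one sire. From breeding onward, control heifers (CON, 7 fetuses, 6 males and 1 female) received 100% of the requirement set for moderate weight gain, and nutrient restricted heifers (RES, 7 fetuses, 5 males and 2 females) received 60% of the CON delivery. Cerebrum, liver, and muscle of each fetus were sequenced, giving 42 libraries, so each tissue was represented by 7 CON and 7 RES fetuses and the 3 tissues of one fetus share their number. Replicates are separate fetuses. Counts on genes summed to between 4145093 and 12741299 per library. Levels are given below as CPM (counts scaled to library size) after TMM scaling over all 42 libraries, for 1 gene at a time, since CPM is not corrected for transcript length. They are described by the lowest, median, and highest of the libraries of a tissue. In bulk tissue, fewer cells of a type and less RNA per cell cannot be told apart.

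Voltage-gated sodium and calcium channels open on depolarization and carry the inward currents of action potentials, transmitter release, and muscle contraction, while potassium channels repolarize the membrane and set its resting potential. Ionotropic glutamate receptors carry fast excitation in the brain and GABA-A receptors carry fast chloride currents, which are depolarizing in many immature neurons. The acetylcholine receptor of the motor endplate is a pentamer whose fetal form holds a gamma subunit that is replaced by epsilon as innervation matures.

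Defining genes of each labelled tissue were measured first. The summed level of 6 neuronal markers (*ELAVL4*, *DCX*, *STMN2*, *TUBB3*, *GAP43*, *MAP2*) had medians of 5648 CPM (cerebrum), 45.0 (liver), and 144 (muscle). The 7 skeletal muscle markers (*MYOG*, *MYOD1*, *MYF5*, *MYH3*, *ACTA1*, *TNNT1*, *MYL1*) had medians of 2948 CPM (muscle), 4.31 (cerebrum), and 9.10 (liver). The 6 hepatocyte markers summed to a median of 135776 CPM in the liver, and the 5 erythroid markers to 6236 CPM there, since the fetal liver also makes red cells. The markers of neurons, skeletal muscle, and hepatocytes were thus highest in the tissues labelled cerebrum, muscle, and liver.

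A few libraries stood apart from their tissue. The cerebrum of RES fetus 1 had 110 CPM of skeletal muscle markers, where the other 13 cerebrum libraries had 2.16 to 14.1. It also held the most erythroid (92.0 CPM), macrophage (27.1 CPM), and mural cell (142 CPM) markers of the 14, and the fewest neuronal markers (2715 CPM). Its summed hepatocyte markers, 6057 CPM, came mostly from 1 gene that choroid plexus also makes, and the other 5 summed to 432 CPM, where the next cerebrum library had 234. The cerebrum of CON fetus 23 had the most neuronal markers, 13477 CPM against 6740 in the next library, and a TMM factor within the tissue of 0.531, where the other 13 had 0.817 to 1.14. Over the cerebrum libraries, 53 channel and receptor genes had at least 42 counts. Of these, RES fetus 1 was the lowest of 14 for 27 and the highest for 9. CON fetus 23 was the lowest for 7 and the highest for 7. The muscle of CON fetus 73 had 1023 CPM of sensory neuron markers, among them *PRPH* and *TAC1*, and the muscle of RES fetus 1 had 268, where the other 12 muscle libraries had 5.71 to 12.5. The CON 73 library was the highest of 14 for 21 of 48 genes with enough counts in muscle. In the liver, counts on 12 mitochondrial genes took 67.7% of RES fetus 1, 44.9% of CON fetus 2, 35.6% of RES fetus 6, and 30.5% of RES fetus 33, against 4.04 to 16.4% of the other 10. The part of other cell types in the results was not tested.

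**Figure D1:**
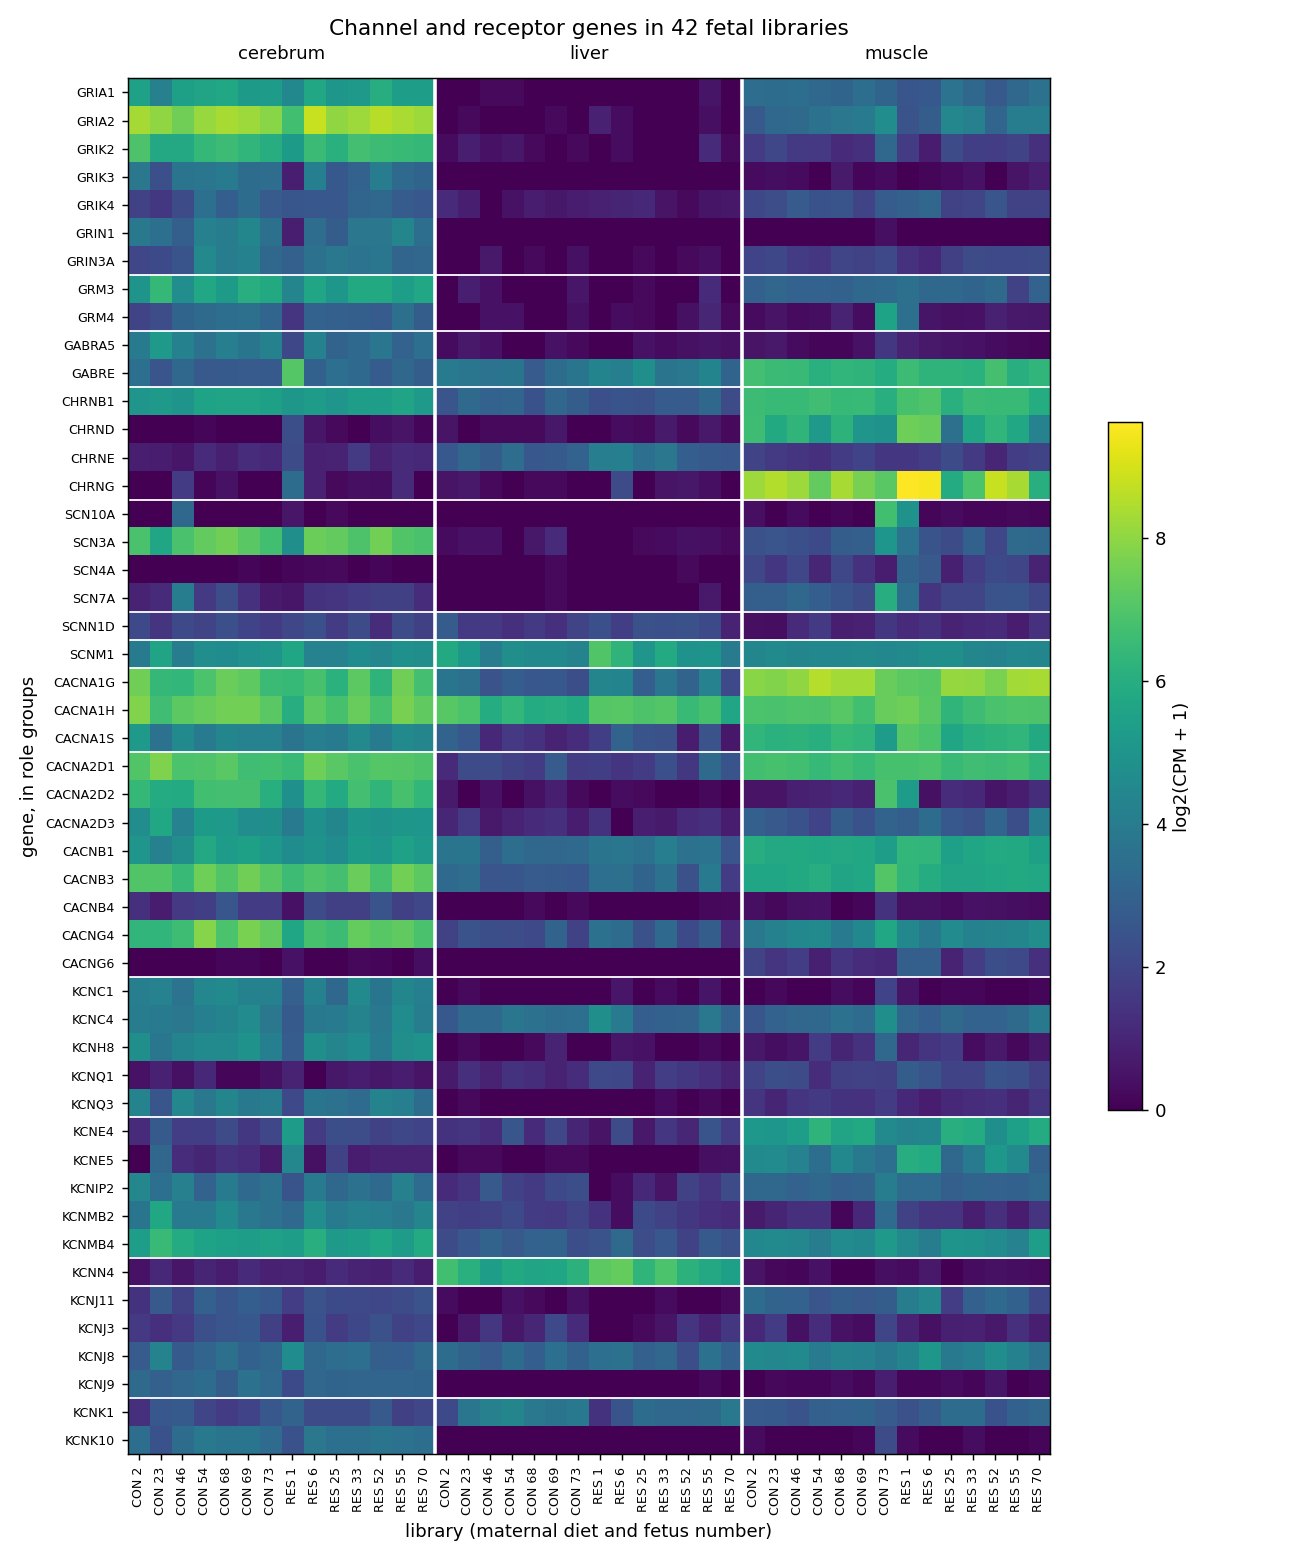
Level of 49 of the 55 genes (rows, in role groups from glutamate receptors at the top to potassium channels at the bottom) in 42 libraries (columns, by tissue, diet, and fetus), as log2(CPM + 1). Most glutamate receptor rows are bright in the cerebrum alone, *CHRNG* and *CHRND* in the muscle, and *KCNN4* in the liver, and the column of cerebrum RES 1 is darker than its neighbours in most neuronal rows.

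Which tissue holds each channel and receptor was asked with the 42 libraries in one fit with fetal sex and diet as covariates. A gene was called at an adjusted p under 0.05 (edgeR quasi-likelihood test, Benjamini-Hochberg over all 15972 genes tested) with at least a 2-fold difference. Of the 55 genes, 54 passed the filter on low counts, the exception being *SCN10A*. Called higher in the cerebrum than in the liver were 40 of the 54, and 5 were called lower, against 33.9 and 27.1% of all genes tested. Called higher in the cerebrum than in the muscle were 28, and 12 were called lower, against 18.4 and 18.7%. Called higher in the muscle than in the liver were 40, and 3 were called lower, against 33.5 and 23.2%. The median log2 differences of the 54 were 4.53, 1.10, and 3.05 for these contrasts, where the medians over all genes were 0.17, 0.06, and 0.21. With genes that had no count in the liver set at the bound that 3 counts over its 14 libraries allow, the last of these medians was 2.91 and the others did not move.

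Called higher in one tissue than in both others were 26 of the 54 in the cerebrum, 12 in the muscle, and 2 in the liver, against 13.9, 9.79, and 19.0% of all genes tested. The other 14 were not called in this way. Since the 10 genes listed as tissue specific were selected on these libraries, their calls are a description. Without them, 19 of 44 were called higher in the cerebrum, 10 in the muscle, and 1 in the liver. Without RES fetus 1 and CON fetus 73 the counts were 27, 12, and 3, and 26, 11, and 2 of the same genes were among them. Under that omission *SCN7A* left the muscle calls, while *GRM4* entered those of the cerebrum and *KCNJ8* those of the muscle. The ranges of the libraries did not overlap those of both other tissues for 12 genes in the cerebrum, 6 in the muscle, and 2 in the liver, against 5.06, 5.32, and 13.6% of all genes tested.

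Of the ionotropic glutamate receptor subunits, 6 of 7 were called higher in the cerebrum than in both other tissues. *GRIA2*, the AMPA receptor subunit that limits calcium entry, ran from 103 to 448 CPM in the cerebrum with a median of 297. It ran from 4.49 to 25.5 CPM in the muscle, with a median of 12.0, and was at 0 counts in 9 of 14 liver libraries. The lowest cerebrum library, RES 1, was still above the highest muscle library. The log2 difference was 4.52 ± 0.24 (SE) between cerebrum and muscle (edgeR adjusted p = 6.3e-20, higher in 14 of 14 fetuses).

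*GRIA1*, also an AMPA subunit, had cerebrum values of 17.2 to 62.7 CPM (median 40.1) and muscle values of 4.95 to 11.7 (median 8.49), again without overlap. Its log2 difference of 2.26 ± 0.19 between cerebrum and muscle compares with 4.52 for *GRIA2*. Among kainate receptor subunits, *GRIK2* ran from 36.3 to 120 CPM in the cerebrum and from 0.679 to 8.56 in the muscle, with medians of 83.9 and 2.29. *GRIK3* was at 0.754 to 16.7 CPM in the cerebrum, no more than 0.751 in the muscle, and no count in any liver library. Its cerebrum mean was at least 236-fold higher than the liver floor of 3 counts over the 14 libraries.

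*GRIK4*, the remaining kainate subunit, was not called between cerebrum and muscle. It had medians of 5.50 CPM in the cerebrum, 4.12 in the muscle, and 0.616 in the liver, and the cerebrum and muscle ranges overlapped (log2 difference 0.44 ± 0.23, edgeR adjusted p = 0.084, higher in cerebrum in 8 of 14 fetuses). DESeq2 gave 0.51 for the same contrast, with an adjusted p under 0.05 but without reaching 2-fold.

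*GRIN1*, the subunit that every NMDA receptor needs, ran from 0.754 to 20.1 CPM in the cerebrum with a median of 11.9. It had no count in any of the 14 liver libraries and 3 counts in the muscle, all from CON 73. The cerebrum mean was at least 287-fold higher than the liver floor. *GRIN3A*, an NMDA subunit of low calcium permeability, was at 3.14 to 22.1 CPM in the cerebrum and at 1.13 to 3.67 in the muscle, ranges that overlapped (log2 difference 1.93 ± 0.26, adjusted p = 2.3e-08 by edgeR). RefSeq places *GRIN1* and *GRIN3A* over other protein-coding genes, and the count table does not state which strand was counted, so reads of such overlaps are uncertain.

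Metabotropic glutamate receptors act through G proteins rather than a pore. *GRM3*, which couples to Gi, was measured at 19.7 to 83.9 CPM in the cerebrum, against 2.65 to 10.8 in the muscle (log2 difference 2.63 ± 0.24).

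*GRM4* was the exception of this group. Its cerebrum range was 1.76 to 10.9 CPM, while in muscle 12 libraries lay between 0.208 and 0.889 CPM and RES 1 and CON 73 had 10.8 and 47.4. These are the muscle libraries with the high sensory neuron markers. The log2 difference between cerebrum and muscle was 0.80 ± 0.63 with all fetuses (edgeR adjusted p = 0.26), 2.66 without CON fetus 73, 4.0 without RES fetus 1 and CON fetus 73, and 2.88 with fetus as a replicate block.

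GABA-A receptor subunits divided between cerebrum and muscle. Of 4 genes, 3 were called higher in the cerebrum, among them *GABRA5*, the alpha-5 subunit of neuronal GABA-A receptors, and *GABRE* was called higher in the muscle. *GABRA5* had medians of 12.5 CPM (cerebrum), 0.368 (muscle), and 0.280 (liver), and its lowest cerebrum library, RES 1 at 3.27 CPM, was above its highest muscle library at 1.95.

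*GABRE*, the epsilon subunit, was at 61.4 to 110 CPM in the muscle, 5.83 to 26.9 in the liver, and 4.74 to 10.5 in 13 cerebrum libraries. The cerebrum of RES fetus 1 had 133 CPM, above every muscle library. The log2 difference was -2.66 ± 0.36 for cerebrum against muscle and 2.66 ± 0.35 for muscle against liver (edgeR adjusted p = 1.5e-08 and 5.3e-09). Without RES fetus 1 these were -3.54 and 2.59. *GABRE* was higher in the muscle than in the cerebrum in 13 of 14 fetuses.

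The 4 muscle acetylcholine receptor subunit genes covered here, which are not all subunits of that receptor, did not share a tissue. *CHRNG*, the fetal gamma subunit, ran from 59.2 to 784 CPM in the muscle with a median of 294, and its medians were 0.226 CPM in the cerebrum and 0.185 in the liver. *CHRND*, the delta subunit, ran from 10.6 to 180 CPM in the muscle with a median of 54.6, against medians of 0.0608 and 0.185. For both, every muscle library was above every library of the other tissues. The log2 differences between muscle and liver were 9.51 ± 0.65 for *CHRNG* (10.22 without RES fetus 6) and 7.93 ± 0.54 for *CHRND*. In RefSeq the 2 genes are neighbours with no protein-coding gene between them.

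*CHRNB1*, the beta subunit, was highest in muscle but present elsewhere, at 61.8 to 123 CPM in the muscle, 30.4 to 48.3 in the cerebrum, and 3.56 to 8.96 in the liver. The ranges of the 3 tissues did not overlap, and the log2 difference was -1.19 ± 0.12 for cerebrum against muscle (edgeR adjusted p = 9.2e-12). Reads of *CHRNB1* may be shared with *ZBTB4*, which overlaps it.

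*CHRNE*, the adult epsilon subunit, went the other way. It was called higher in the liver, at 5.12 to 16.8 CPM, than in the muscle, at 1.07 to 3.55, or the cerebrum, at 0.509 to 3.64. The log2 difference was -2.75 ± 0.22 for cerebrum against liver and -1.85 ± 0.21 for muscle against liver (edgeR adjusted p = 6.9e-15 and 1.5e-10). An overlapping gene, *C19H17orf107*, could contribute reads, and this was not tested. Muscle at day 50 had 59.2 CPM or more of *CHRNG* and 3.55 CPM or less of *CHRNE* in every library. These levels cannot be compared between the genes, since CPM is not corrected for transcript length.

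**Figure D2:**
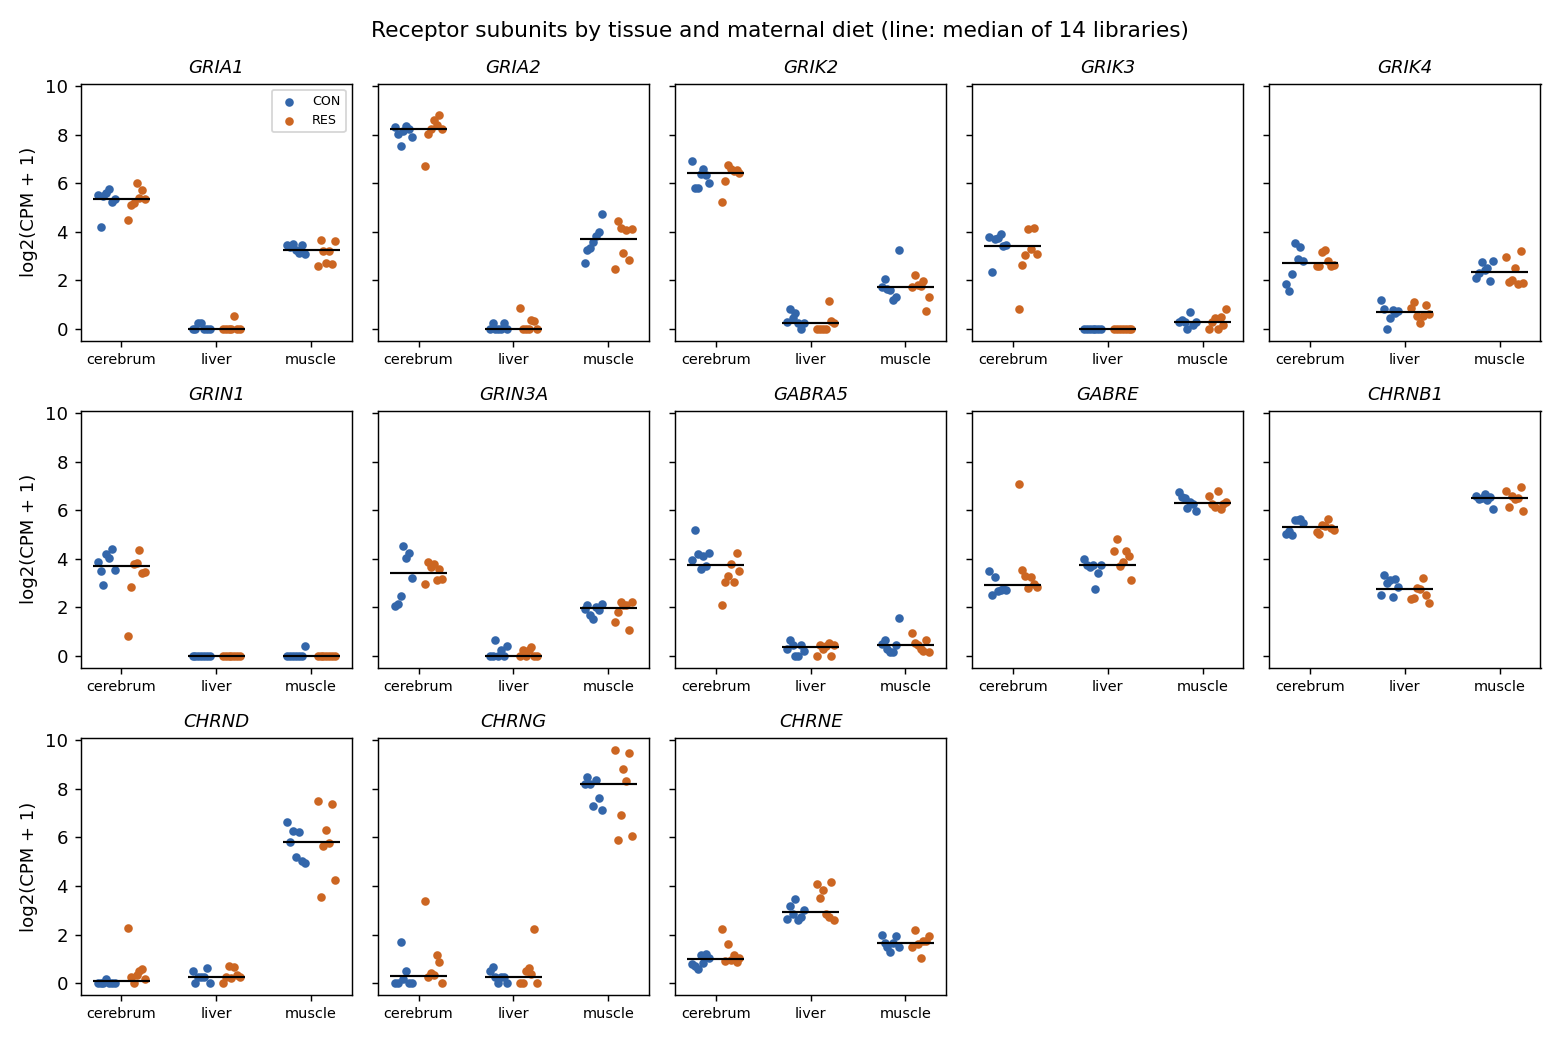
Level of 13 receptor subunits as log2(CPM + 1) by tissue, with a point for each fetus (CON blue, RES orange) and a line at the median of 14 libraries. Glutamate subunits and *GABRA5* sit highest in the cerebrum, *GABRE*, *CHRNB1*, *CHRND*, and *CHRNG* in the muscle, and *CHRNE* in the liver, and the lone high cerebrum point of *GABRE* at 133 CPM is RES 1.

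The 2 highest and 2 lowest muscle libraries for *CHRNG* were also those for the skeletal muscle markers. The muscle of RES fetuses 1 and 6 had the highest *CHRNG* (784 and 720 CPM) and the highest summed skeletal muscle markers (6072 and 7116 CPM). The muscle of RES fetuses 25 and 70 had the lowest *CHRNG* (59.2 and 66.3 CPM) and the lowest markers (959 and 1079 CPM). The third lowest *CHRNG*, 119 CPM in RES 33, stood beside markers of 2987 CPM, above the median of the tissue. Both extremes were RES libraries, and the CON libraries ran from 140 to 360 CPM.

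**Figure D3:**
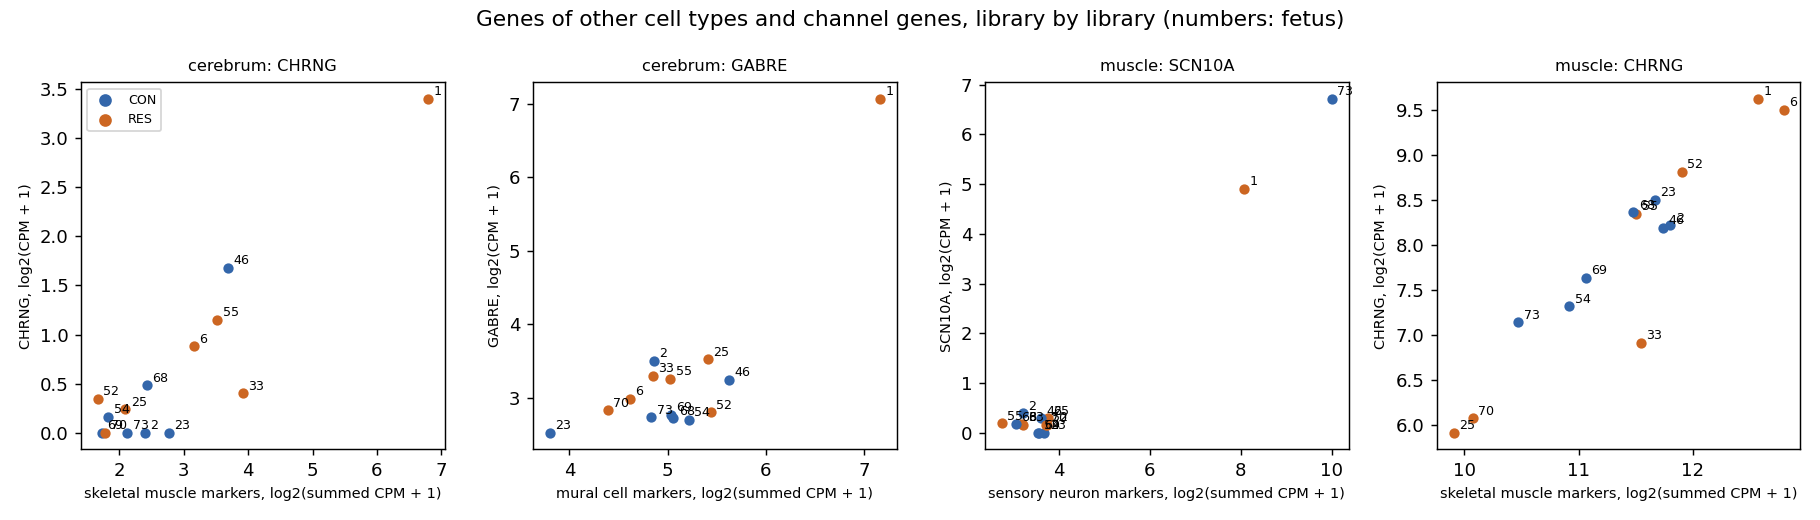
Summed CPM of marker genes (x axis) against the CPM of a channel or receptor gene (y axis), both as log2(value + 1), with a point for each fetus (CON blue, RES orange). Cerebrum RES 1 stands alone in *CHRNG* and *GABRE* and in the muscle and mural cell markers, muscle CON 73 and RES 1 stand alone in *SCN10A* and in the sensory neuron markers, and muscle *CHRNG* runs from 59.2 CPM in RES 25 to 784 in RES 1 beside the skeletal muscle markers.

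Of the 4 voltage-gated sodium channel genes tested, 1 was called higher in the cerebrum and 2 in the muscle. *SCN3A*, a channel of embryonic brain, ran from 26.9 to 188 CPM in the cerebrum with a median of 124, and from 3.09 to 32.2 in the muscle with a median of 5.48. The cerebrum value of 26.9 belonged to RES 1 and the muscle value of 32.2 to CON 73. Between cerebrum and muscle the log2 difference was 4.03 ± 0.31 (edgeR adjusted p = 5.2e-15, higher in 14 of 14 fetuses), or 4.66 without RES fetus 1 and CON fetus 73.

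*SCN7A*, an atypical channel of glia and sensory neurons that responds to sodium, had medians of 4.65 CPM in the muscle, 1.75 in the cerebrum, and 0 in the liver. Its highest muscle value, 62.6 CPM in CON 73, was followed by 10.1 in RES 1. The log2 difference between cerebrum and muscle was -1.61 ± 0.44 with all fetuses, -0.87 without CON fetus 73, and -0.63 without both RES fetus 1 and CON fetus 73, and it was no longer called in either of the last fits. *SCN10A*, a channel of nociceptive sensory neurons, had 959 counts in muscle CON 73 (104 CPM) and 251 in muscle RES 1 (28.9 CPM), and at most 3 counts in each of the other 12 muscle libraries. In the cerebrum CON fetus 46 had 49 counts of *SCN10A* (8.31 CPM), and it also had the highest cerebrum *SCN7A* (15.8 CPM).

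*SCNN1D*, the delta subunit of the epithelial sodium channel, was low throughout, with a cerebrum median of 3.03 CPM, a liver median of 2.68, and a muscle median of 1.14 (log2 difference 1.36 ± 0.25 between cerebrum and muscle). *SCNM1* matched the family name but encodes a splicing factor. It had medians of 25.1 CPM (cerebrum), 29.5 (liver), and 21.5 (muscle). It was lower in the muscle and the cerebrum than in the liver by less than 2-fold (log2 differences -0.77 ± 0.22 and -0.50 ± 0.22, edgeR adjusted p = 0.0019 and 0.039), and it had a wide range in the liver, from 15.1 to 128.

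Calcium channel pores were highest in the muscle for 2 of 3. *CACNA1S*, the voltage sensor of skeletal muscle contraction, ran from 38.6 to 140 CPM in the muscle, 11.2 to 35.8 in the cerebrum, and 0.533 to 7.42 in the liver, with no overlap of muscle with the others. *CACNA1G*, a T-type channel, had a median of 263 CPM in the muscle and 109 in the cerebrum (log2 difference -1.09 ± 0.22 for cerebrum against muscle), against 6.82 in the liver. *CACNA1H*, also T-type, had medians of 149, 100, and 120 CPM in cerebrum, liver, and muscle. It was lower in the liver than in the cerebrum and the muscle by less than 2-fold (edgeR adjusted p = 0.00062 and 0.040).

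Calcium channel accessory subunits, which set the surface level and gating of the pores, were called higher in the cerebrum for 5 of 8 and in the muscle for 1. *CACNB3* had medians of 129 CPM in the cerebrum and 52.5 in the muscle (log2 difference 1.18 ± 0.18). *CACNG4*, which is also an AMPA receptor partner, had medians of 116 and 20.6 CPM (log2 difference 2.56 ± 0.23). *CACNA2D1* was close between them, with medians of 125 and 102 CPM (log2 difference 0.40 ± 0.15, edgeR adjusted p = 0.022), and in the liver it was at 2.62. *CACNG6* was low but found almost only in muscle, with 313 counts over the muscle libraries, 9 over the cerebrum, and 0 over the liver. Its muscle mean was at least 63.4-fold higher than the liver floor.

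Voltage-gated potassium channels were called higher in the cerebrum for 4 of 6 genes. *KCNQ3*, which contributes to the M-current that damps neuronal firing, ran from 3.39 to 20.7 CPM in the cerebrum with a median of 13.6, against a muscle median of 1.57, and the log2 difference between cerebrum and muscle was 3.16 ± 0.23. RES 1 was its lowest cerebrum library.

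*KCNC1*, a channel of fast-spiking neurons, had a cerebrum median of 17.8 CPM and a muscle median of 0.109 (log2 difference 5.70 ± 0.46, or 7.09 without CON fetus 73), with counts in 4 of 14 liver libraries. *KCNH8* had medians of 23 and 0.805 CPM in cerebrum and muscle (log2 difference 3.86 ± 0.39, or 4.51 without RES fetus 1 and CON fetus 73). *KCNC4*, of the same subfamily as *KCNC1*, had medians of 15.1, 9.26, and 8.14 CPM in cerebrum, liver, and muscle. It was higher in the cerebrum than in the muscle and the liver by less than 2-fold (log2 differences 0.71 ± 0.22 and 0.58 ± 0.22, edgeR adjusted p = 0.0037 and 0.014, in 12 of 14 fetuses each). *KCNQ1*, a channel of heart and epithelia, was called higher in the muscle, with a muscle median of 2.92 CPM, a cerebrum median of 0.473, and a liver median of 1.45.

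Of the potassium channel accessory subunits, 2 were called higher in the cerebrum and 2 in the muscle. *KCNMB4*, the neuronal beta subunit of BK channels, had medians of 43.3 CPM in the cerebrum, 22.8 in the muscle, and 5.12 in the liver. Its difference from muscle lay at the 2-fold limit (log2 difference 1.01 ± 0.15), and it was not called when fetus was a replicate block. *PTPRB* overlaps *KCNMB4*, so its reads are uncertain as well. *KCNE4* had medians of 41.6 CPM in the muscle and 2.97 in the cerebrum, and *KCNE5* had 19.8 and 0.961. Their highest cerebrum values, 38.7 and 21.1 CPM, were both in RES 1.

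*KCNN4*, the Gardos channel of red cells and a channel of other blood cells, was called higher in the liver. It ran from 39.5 to 161 CPM in the liver with a median of 69, and did not exceed 1.27 in the cerebrum or 0.566 in the muscle. The log2 difference from the liver was -6.41 ± 0.23 for the cerebrum and -8.25 ± 0.26 for the muscle. All 5 erythroid markers were likewise called higher in the liver than in both other tissues. So were all 6 hepatocyte markers, 1 of 2 macrophage markers, and 1 of 2 mural cell markers. Which liver cells hold *KCNN4* was not tested.

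Inward rectifiers were called in the cerebrum for 2 of 4. *KCNJ9*, a subunit of G protein-gated channels of neurons, had medians of 7.79 CPM in the cerebrum and 0.123 in the muscle (log2 difference 5.21 ± 0.28) and 1 count in the liver. The ATP-sensitive channel pores *KCNJ8* and *KCNJ11* were higher in the muscle than in the cerebrum by less than 2-fold, with log2 differences of -0.94 ± 0.19 and -0.92 ± 0.26 for cerebrum against muscle. *KCNJ8* is typical of vascular mural cells and *KCNJ11* of pancreatic islets and striated muscle.

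The K2P channels, which carry background potassium currents, differed from each other. *KCNK10* was called higher in the cerebrum, at 4.30 to 13.7 CPM, with no count in the liver and 34 of its 42 muscle counts in CON 73. *KCNK1* was lowest there, with medians of 3.53 CPM in the cerebrum, 6.38 in the muscle, and 10.8 in the liver.

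Whether restriction of the dam went with a different level of these genes was asked within each tissue, RES against CON with fetal sex as covariate. No channel or receptor gene, and no gene of any kind, reached an adjusted p of 0.05 in any tissue by edgeR. At an adjusted p under 0.05, with no minimum fold, DESeq2 gave 0 cerebrum, 78 liver, and 14 muscle genes, none of them a channel or receptor gene, and 2 of 50, 9 of 24, and 3 of 43 channel and receptor genes had an unadjusted p under 0.05, against 2.20, 28.0, and 9.77% of all genes. Genes with an unadjusted p under 0.05 are therefore counted below, beside the share of all genes that had one.

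In the cerebrum 4 of 50 genes tested had an unadjusted p under 0.05, 2 higher and 2 lower in RES, against 2.55% of all genes (2.18% higher and 0.363% lower). The median log2 difference of the 50 was -0.15, where that of all genes was -0.03. The lowest adjusted p among them was 0.999, and leaving out RES fetus 1 left 1 of 50 under 0.05, against 0.718% of all genes.

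*GABRE* had the lowest p in the cerebrum. Its CON values were 4.74 to 10.3 CPM (median 5.63) and its RES values 5.94 to 133 (median 8.55), and RES 25 at 10.5 and RES 1 at 133 were the RES libraries above the highest CON library. The log2 difference was 1.91 ± 0.66 (edgeR adjusted p = 0.999, 7 of 7 RES libraries above the CON median), and without RES fetus 1 it was 0.26. *KCNE4* had CON values of 1.29 to 5.60 CPM (median 2.43) and RES values of 2.19 to 38.7 (median 3.26). Its log2 difference was 1.44 ± 0.64 (edgeR adjusted p = 0.999), and without RES fetus 1 it was 0.07.

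*CHRNG* was next among the genes that were higher, with CON values of 0 to 2.21 CPM and RES values of 0 to 9.55 in the cerebrum. Its difference of 2.24 ± 1.15 on the log2 scale did not reach an unadjusted p of 0.05 by edgeR, and it was 0.24 without RES fetus 1 and 3.96 without CON fetus 46, which held the 2.21. For *GABRE*, *KCNE4*, and *CHRNG* alike, the difference was under 0.3 on the log2 scale once RES fetus 1 was left out. Markers that moved with diet in the same libraries were those of skeletal muscle (4 of 4 tested had an unadjusted p under 0.05, median log2 difference 1.97), hepatocytes (4 of 6, median 2.29), erythroid cells (3 of 4, median 1.84), and mural cells (1 of 2, median 1.14), all higher in RES. Without RES fetus 1 the counts were 0 of 4 (median 0.33), 3 of 6 (median 1.57), 0 of 4 (median 0.99), and 0 of 2 (median 0.05). The 2 macrophage markers had a median of 0.84, or 0.04 without RES fetus 1, and neither had such a p.

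Among the genes lower in RES, *GABRA5* had the lowest p. It had CON values of 10.9 to 35.1 CPM (median 16.5) and RES values of 3.27 to 17.8 (median 8.84), with 6 of 7 RES libraries below the CON median and overlapping groups. Its log2 difference was -0.90 ± 0.35 (edgeR adjusted p = 0.999). It was -0.63 without CON fetus 23, which held the highest value, where it was no longer under an unadjusted p of 0.05, and -0.73 without RES fetus 1 and CON fetus 73. The neuronal markers of the same libraries had a median log2 difference of -0.40, or -0.12 without CON fetus 23, and the cortical excitatory neuron markers one of -0.68, or -0.59, with no unadjusted p under 0.05.

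In the liver 7 of 24 genes tested had an unadjusted p under 0.05, 6 higher and 1 lower in RES. All genes gave 24.1% (13.5% higher and 10.6% lower), so the share was near the background. The median log2 difference of the 24 was 0.35, against -0.03 for all genes, and the lowest adjusted p was 0.18. The count was 3 without RES fetus 1 and CON fetus 73 (8.83% of all genes) and 3 without sex as a covariate (9.96%). It was also 3 of 24 without RES fetuses 1, 6, and 33 and CON fetus 2, the libraries with the most mitochondrial counts, against 6.86% of all genes, with 1 higher and 2 lower in RES and a median log2 difference of 0.02.

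*KCNN4* had CON values of 39.5 to 102 CPM (median 56.9) and RES values of 41.8 to 161 (median 76.9) in the liver. The groups overlapped, but RES fetuses 33, 1, and 6 were above every CON library, at 119, 145, and 161 CPM. The log2 difference was 0.65 ± 0.23 (edgeR adjusted p = 0.18, 5 of 7 RES libraries above the CON median), and the unadjusted p stayed under 0.05 in 14 of 14 fits that left out 1 fetus. *CHRNE* likewise had its highest values in RES 6, 1, and 33, with CON values of 5.12 to 9.91 CPM (median 6.14) and RES values of 5.16 to 16.8 (median 10.4). Its log2 difference was 0.67 ± 0.24 (edgeR adjusted p = 0.18), also under an unadjusted 0.05 in 14 of 14 such fits, and without RES fetus 1 and CON fetus 73 together it was 0.56 and no longer so. Without RES fetuses 1, 6, and 33 and CON fetus 2 the log2 difference was 0.26 for *KCNN4* and 0.14 for *CHRNE*, neither under an unadjusted 0.05.

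*GABRE* in the liver had CON values of 5.83 to 15.2 CPM (median 12.3) and RES values of 7.64 to 26.9 (median 16.6), and its highest libraries were RES 25 and RES 55 rather than those 3. Its log2 difference was 0.63 ± 0.24 (edgeR adjusted p = 0.18), under an unadjusted 0.05 in 12 of 14 fits that left out 1 fetus. *SCNM1* had CON values of 15.5 to 56.1 CPM (median 23.1) and RES values of 15.1 to 128 (median 31.3), with a log2 difference of 0.89 ± 0.37 (edgeR adjusted p = 0.19), or 0.54 without RES fetus 1, and 10 of 14 such fits were under an unadjusted 0.05. *CACNA1G* had CON values of 3.91 to 12.5 CPM (median 5.34) and RES values of 3.38 to 19.9 (median 12.7), with a log2 difference of 0.88 ± 0.39 (edgeR adjusted p = 0.20), and 5 of 14 such fits were under it.

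The liver libraries with many mitochondrial counts were also high in *SCNM1* and *KCNN4*. The 4 libraries of highest *SCNM1*, RES 1 (128 CPM), RES 6 (74.5), RES 33 (58.0), and CON 2 (56.1), were the 4 with 30.5% or more of counts on mitochondrial genes, and the same 4 were the highest for *KCNN4*. *CHRNE* was high in the 3 RES libraries of these and low, at 5.20 CPM, in CON 2. Recomputing the liver comparison without mitochondrial counts gave 6 of 24 genes under 0.05 (23.4% of all genes), with log2 differences of 0.64 for *KCNN4*, 0.67 for *CHRNE*, and 0.89 for *SCNM1*. Leaving out the 4 libraries instead gave 0.24 for *SCNM1* and 0.45 for *CACNA1G*, neither under an unadjusted p of 0.05, while *GABRE* was at 0.90 and stayed under it. Erythroid markers stood beside *KCNN4*: *GATA1* and *KLF1* were 0.67 and 0.71 higher in RES on the log2 scale (edgeR adjusted p = 0.18 for both), while *ALAS2* differed by 0.08. The part of mitochondrial counts and of red cell content in these differences was not tested.

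**Figure D4:**
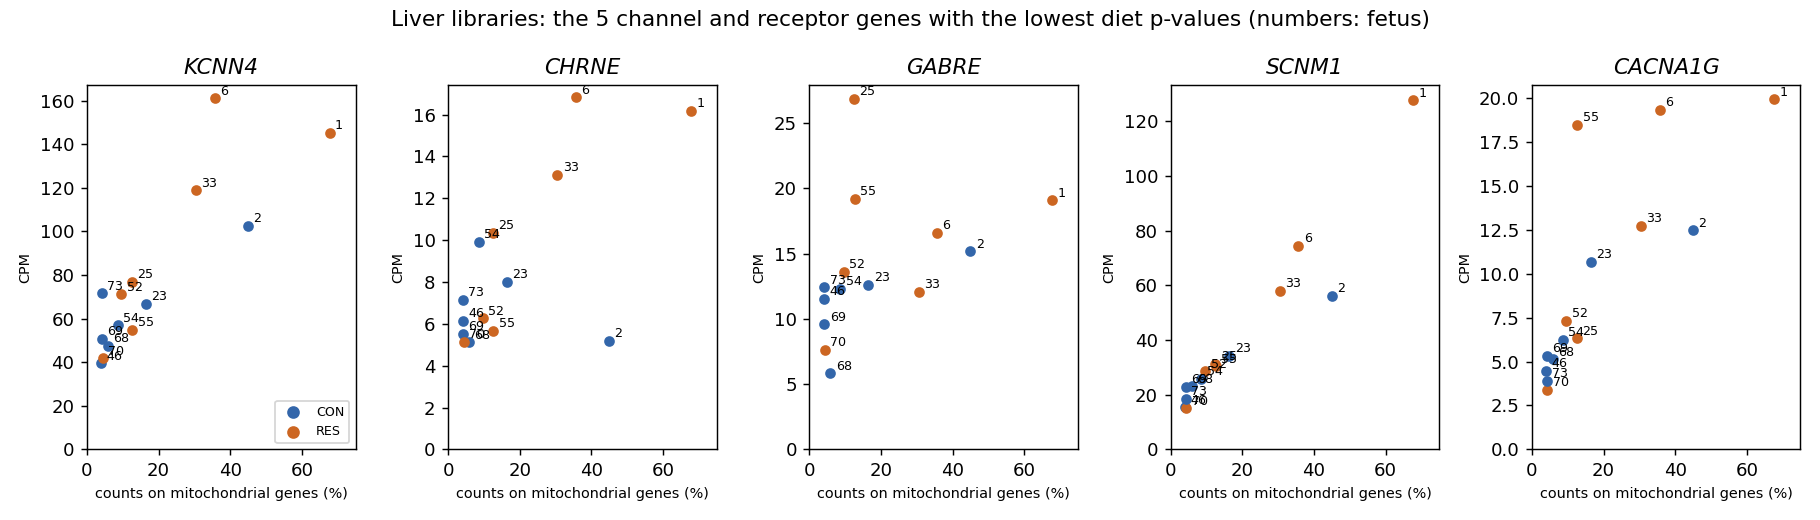
CPM of the 5 genes with the lowest diet p in the liver (y axes, each from 0) against the percent of counts on 12 mitochondrial genes (x axis), with a point for each fetus (CON blue, RES orange). *SCNM1* runs from 15.1 CPM in RES 70 to 128 in RES 1, the library with 67.7%, while *GABRE* is highest in RES 25 at 26.9 CPM.

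In the muscle 5 of 43 genes tested had an unadjusted p under 0.05, 2 higher and 3 lower in RES, against 9.91% of all genes (5.00% higher and 4.91% lower). The median log2 difference of the 43 was -0.0026 and that of all genes -0.0089, and the lowest adjusted p was 0.48. The count was 1 of 43 without RES fetus 6 (6.16% of all genes) and 2 of 42 without RES fetus 1 and CON fetus 73 (6.53%).

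*CACNG6* had CON values of 0.796 to 2.91 CPM (median 1.71) and RES values of 0.887 to 6.45 (median 3.34), with a log2 difference of 1.06 ± 0.41 (edgeR adjusted p = 0.48). Its highest values, 6.45 CPM, were in RES 1 and RES 6, the muscle libraries with the most skeletal muscle markers, and without RES fetus 6 its log2 difference was 0.85. It was under an unadjusted p of 0.05 in 12 of 14 single omissions. *KCNQ1* was also highest in RES 1, with CON values of 1.33 to 4 CPM and RES values of 2.57 to 6.22 (log2 difference 0.53 ± 0.25, edgeR adjusted p = 0.50). Without RES fetus 1 the difference was 0.39, and 5 of 14 single omissions were under an unadjusted p of 0.05.

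*SCN7A* had muscle CON values of 3.69 to 62.6 CPM (median 6.43) and RES values of 1.81 to 10.1 (median 3.11), with 6 of 7 RES libraries below the CON median. Its log2 difference was -1.59 ± 0.68 with all fetuses (edgeR adjusted p = 0.49), -0.44 without CON fetus 73, and -0.85 without both CON fetus 73 and RES fetus 1, and 9 of 14 single omissions were under an unadjusted p of 0.05. In the same comparison the neuronal markers had a median log2 difference of -1.13 and the sensory neuron markers one of -1.33, and these were 1.19 and 1.13 without CON fetus 73, and -0.07 and -0.22 without both fetuses. *KCNQ3* had CON values of 1 to 2.28 CPM (median 1.76) and RES values of 0.679 to 1.72 (median 1.15), below the CON median in 7 of 7 RES libraries (log2 difference -0.55 ± 0.25, edgeR adjusted p = 0.50), with 4 of 14 single omissions under an unadjusted 0.05.

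Of the 5 genes that the study listed as differentially expressed in muscle, *SCN7A* had an unadjusted p under 0.05 here, and *CHRNG*, *GRM4*, and *KCNE5* did not. The 1 gene listed in liver, *SCNM1*, also had one. The study took these listings from an earlier report on the same animals, made with another pipeline (Tuxedo Suite). The listings and the p-values here therefore come from unlike methods, and their directions were not compared. *CHRNG* had CON values of 140 to 360 CPM and RES values of 59.2 to 784, with medians of 291 and 323 (log2 difference 0.48 ± 0.52, edgeR adjusted p = 0.74). *KCNE5* had medians of 18.0 and 22.7 CPM (log2 difference 0.74 ± 0.44, edgeR adjusted p = 0.58), and its RES values, 6.65 to 63.1, spanned the CON range. The 7 skeletal muscle markers had a median log2 difference of 0.52, or 0.20 without RES fetus 1 and CON fetus 73. *GRM4* had a log2 difference of -1.61 ± 1.33 (edgeR adjusted p = 0.67) although 7 of 7 RES libraries were above the CON median, and without CON fetus 73 it was 2.34. That last fit kept RES fetus 1, with 94 counts of *GRM4*. Apart from RES 1 and CON 73, the muscle libraries had only 2 to 7 counts each. *SCN10A* did not pass the muscle filter.

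**Figure D5:**
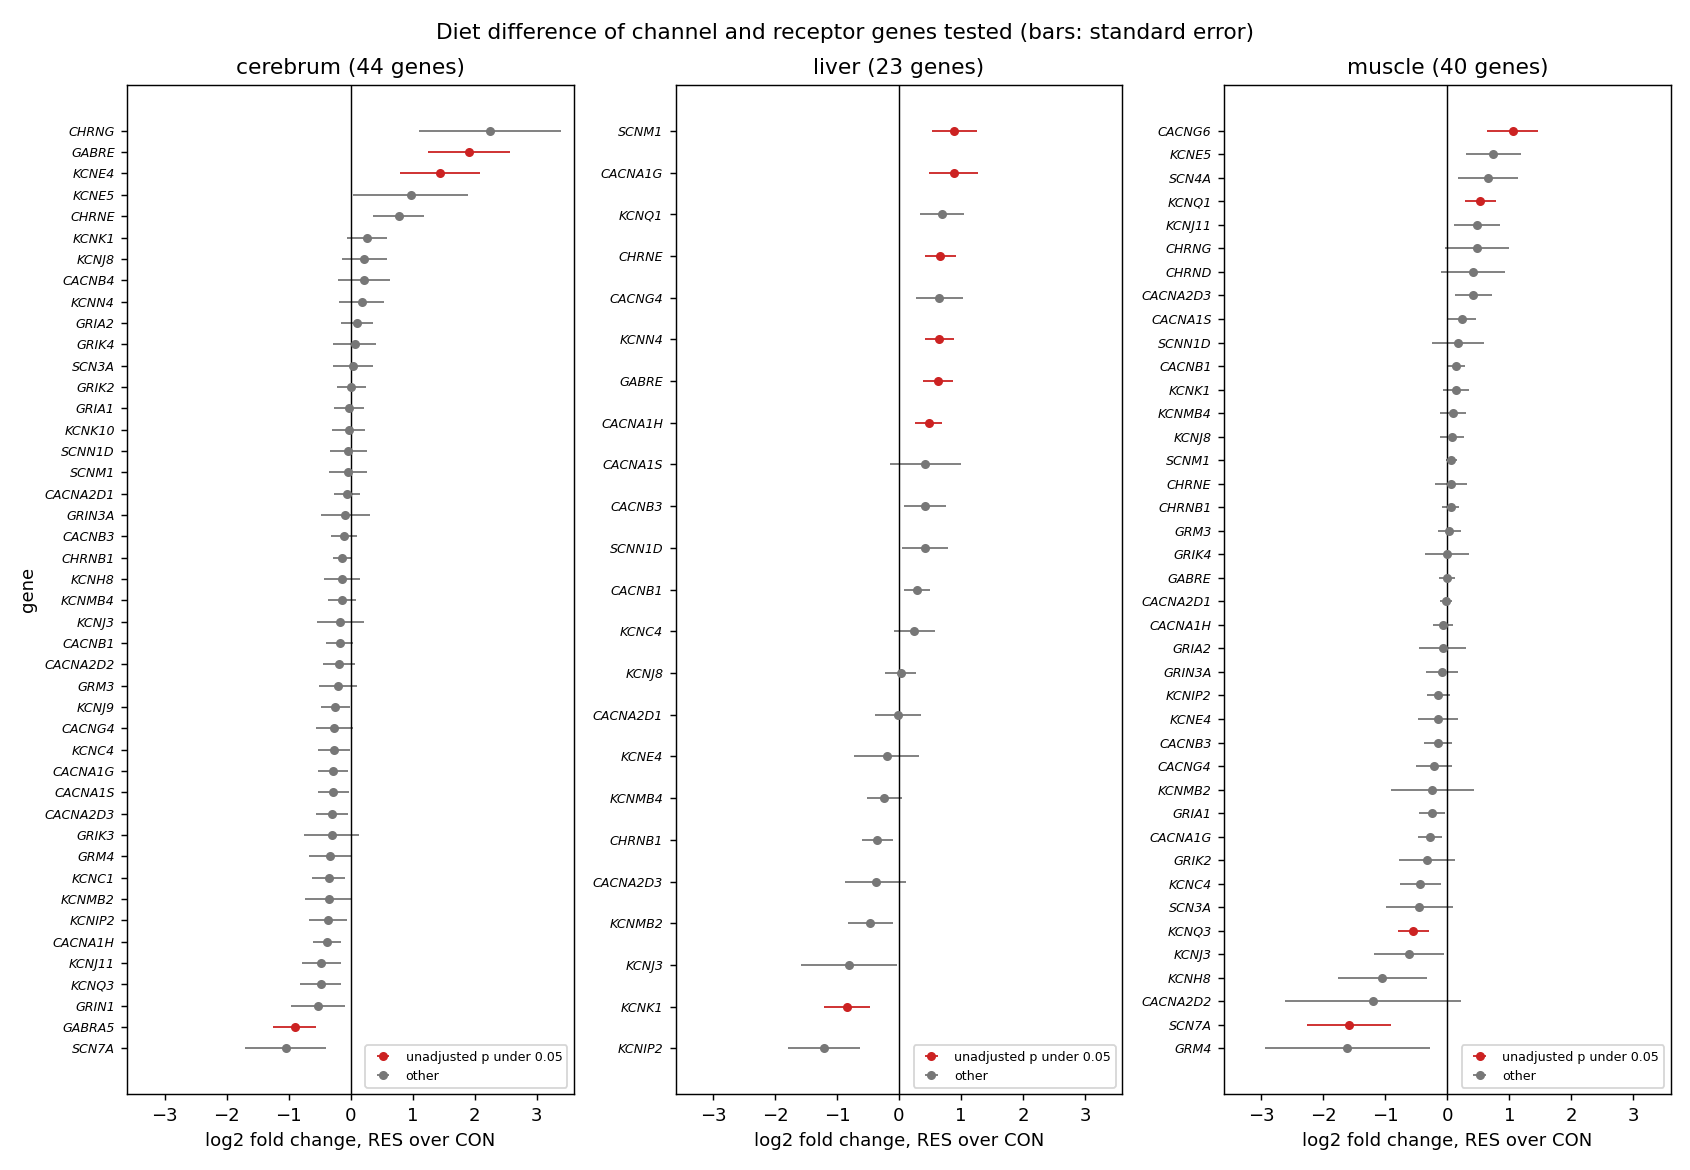
Log2 difference of RES over CON for 44 of the 50 genes tested in the cerebrum, 23 of 24 in the liver, and 40 of 43 in the muscle, with bars of 1 standard error and red points at an unadjusted p under 0.05. There are 3 red points for cerebrum, 7 for liver, and 4 for muscle, and the bars of *CHRNG* in the cerebrum (1.15) and *GRM4* in the muscle (1.33) are wide.

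Whether a diet difference itself differed between tissues was tested with an interaction term over 42 libraries. No gene reached an adjusted p of 0.05 by edgeR, and 2 did by the DESeq2 likelihood ratio test, neither of them a channel or receptor gene (edgeR gave 897 of 15972 genes, 5.62%, at an unadjusted p under 0.05). Of the 54 channel and receptor genes, 6 had an unadjusted p under 0.05 (among them *GABRE*, *CHRND*, *CACNA1G*, and *KCNC1*), with a lowest adjusted p of 0.83. With fetus as a replicate block 2 remained under 0.05, *CHRND* and *CACNA1G*, against 563 of all 15972 genes (lowest adjusted p of the block fit 0.91 by edgeR). Without RES fetus 1 and CON fetus 73, 2 were under 0.05 as well, against 329 of all 15979 genes, and neither of the 2 was among these 4.

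Genes that work with these channels were taken from 5 lists outside the naming rule. Their symbols come from the same supplementary tables, and the lists were chosen with earlier results known, so their calls are a description. The shares of all genes tested that were called higher than in both other tissues were 13.9% (cerebrum), 9.79% (muscle), and 19.0% (liver). All 11 genes of transmitter synthesis, loading, and release were called higher in the cerebrum than in both other tissues, among them *GAD1*, which makes GABA, at 133 to 278 CPM there and no more than 4.91 in the muscle. Of 13 receptor partners and scaffolds, 8 were called in the cerebrum and 1 in the liver, the latter being *HOMER2*, with medians of 26.3 CPM in the liver, 8.84 in the muscle, and 5.07 in the cerebrum. Of 9 other receptors and ligand-gated channels, 5 were called highest in cerebrum, 2 in liver, and 1 in muscle, *P2RX4* having a liver median of 40.1 CPM against 4.29 in the cerebrum.

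Both endplate genes and all 5 genes of calcium release and excitation-contraction coupling were called higher in the muscle, against 9.79% of all genes tested. *MUSK*, the endplate kinase, had a muscle median of 15.3 CPM and was at or below 0.754 in every other library. *RAPSN*, which clusters the receptor, had medians of 30.2 CPM in the muscle, 1.29 in the cerebrum, and 0.358 in the liver. *RYR1*, the calcium release channel, had medians of 167, 47.0, and 38.6 CPM in muscle, cerebrum, and liver. By diet, an unadjusted p under 0.05 was found for 1 of 38 genes tested in the cerebrum (*CASQ2*), 3 of 20 in the liver (*SYT3*, *HOMER1*, and *RYR1*), and 1 of 32 in the muscle (*DLG2*), near or below the shares of all genes given above, and none had an adjusted p under 0.05 by edgeR.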

How the data were processed

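Total RNA of fetal cerebrum, liver, and muscle was sequenced from strand-specific libraries as 50-bp read pairs. The authors deposited raw counts per gene for 42 libraries, made with STAR 2.7.3a after FastQC 0.11.8 on ARS-UCD1.2 with Ensembl annotation. The strand column of the counts is not given in the sources used here. All columns were mapped to samples by name.

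Genes under 1 CPM in at least 80% of the libraries compared were dropped. Within a tissue RES was compared with CON by the quasi-likelihood test of edgeR 4.0.16 (R 4.3.3) with TMM scaling and sex as covariate. Tissues were compared over all libraries with sex and diet, and the interaction with sex. P-values were adjusted over all genes tested (Benjamini-Hochberg). Alternatives were DESeq2 1.42.0, its size factors, other filters, no sex covariate, no mitochondrial counts, each fetus left out, and fetus as a replicate block. Omission of RES fetus 1 and CON fetus 73 together, and of the 4 liver libraries with the most mitochondrial counts, was chosen after seeing the data. The 3 tissues of a fetus are paired by its number. The median correlation of their deviations from the group means was 0.03 for cerebrum and liver, 0.06 for cerebrum and muscle, and 0.12 for liver and muscle. The scripts were tested on simulated data.

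The genes and lists were chosen with earlier results of these data known. Named with values were the 3 genes of highest mean CPM in each role group, all acetylcholine, GABA-A, and ionotropic glutamate receptor subunits, the 5 lowest diet p-values per tissue, and genes listed as differentially expressed or tissue specific. Some genes that this rule names are not reported here or shown in the figures, but they are included in all counts of channel and receptor genes. Symbols of all 55 genes matched RefSeq (ARS-UCD2.0), used for neighbours and overlaps alone. The floor of 3 counts covers counting error alone.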

Additional observations from a re-analysis of the deposited data

Results flagged for a closer look

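In groups of 7 libraries, a highest or lowest value was set apart from the others by Dixon's criterion in 11 of 38 groups looked at, where chance gives about 1 in 20 for groups picked without regard to their values. These genes were mostly named for their diet p, and 4 of the 11 values are from the cerebrum of RES fetus 1, so that rate cannot be applied here. The cerebrum of RES fetus 1 was far above the other RES libraries for *GABRE* (133 CPM, group median 8.55), *KCNE4* (38.7, median 3.26), and *CHRNG* (9.55, median 0.322), and for the percent of counts on mitochondrial genes (14.7, median 4.41). In CON cerebrum, fetus 23 stood apart for *GABRA5* (35.1 CPM, median 16.5) and fetus 46 for *CHRNG* (2.21 CPM, median 0). In CON muscle, fetus 73 stood apart for *SCN7A* (62.6 CPM, median 6.43) and *GRM4* (47.4, median 0.265). In RES muscle, fetus 1 stood apart for *SCN7A* (10.1 CPM, median 3.11) and *GRM4* (10.8, median 0.536). In CON liver, fetus 2 stood apart for the percent of counts on mitochondrial genes (44.9, median 5.84).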

How the results depend on the processing

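Over the alternatives, 463 values of named genes kept their direction and side of an adjusted p of 0.05, 5 passed it newly, 2 no longer passed it, and 1 turned direction. The 2-fold minimum was not part of this tally, and of the single omissions only the lowest and highest value of each gene entered. No diet value passed in the main edgeR fit, so diet values counted as kept unless they turned direction or newly passed. The count of channel and receptor genes with an unadjusted diet p under 0.05 was 4 in the cerebrum. It was 2 with DESeq2 (2.20% of all genes) and 2 without RES fetus 1 and CON fetus 73 (0.499%). With each fetus left out it was 1 to 5. The 1 was without RES fetus 1 and the 5 without RES fetus 33, against 0.718 and 3.40% of all genes. In the liver it was 7, and 3 without the sex covariate, without those 2 fetuses, or without the 4 libraries with the most mitochondrial counts, and 3 to 11 with single omissions (3 without CON fetus 46, RES fetus 6, or CON fetus 73, and 11 without RES fetus 70, against 14.8, 13.3, 16.5, and 33.1% of all genes). In the muscle it was 5, and 3 with DESeq2, 2 without those 2 fetuses, and 1 to 5 with single omissions (1 without RES fetus 6, against 6.16% of all genes). None of these had an adjusted p under 0.05. Without the 2-fold minimum 5 genes rather than 2 were called highest in the liver, 28 rather than 26 in the cerebrum, and 16 rather than 12 in the muscle, against 29.9, 25.7, and 16.7% of all genes. With fetus as a replicate block the interaction count was 2 rather than 6, against 563 rather than 897 of all 15972 genes. Without those 2 fetuses it was also 2, against 329 of all 15979 genes. Among tissue calls the block removed *KCNMB4* and added 3 genes, among them *GRM4* and *KCNJ8*. The diet difference of *GRM4* in muscle was -1.61, and -3.45 (without RES fetus 1) to 2.34 (without CON fetus 73) with single omissions. Between cerebrum and muscle, below 2-fold throughout, *GRIK4* had an adjusted p under 0.05 with DESeq2 (0.51) and without RES fetus 6 (0.56), and *CACNA2D1* no longer did without CON fetus 23 (0.33). The causes were not tested. Low counts limit genes such as *CACNG6* and *SCN10A*.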
